A study of Mus musculus with 24 samples.

Results

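Heat shock proteins and chaperonins were followed across RNA sequencing and ribosome profiling of hippocampal slices, WT or Tsc2+/-. The members were the genes whose symbol marks them as HSP70, HSP110, HSP90 or small heat shock proteins (Hsp, leaving out the matrix proteoglycan Hspg2), J proteins (Dnaja, Dnajb, Dnajc), subunits of the cytosolic chaperonin CCT (Tcp1 and Cct), prefoldin subunits (Pfdn) or BAG proteins (Bag1 to Bag6). The rule used names alone and found 95 members in each table, of 23845 genes in the RNA table and 20436 in the table of ribosome-protected fragments (RPF, or footprints). A fixed list of 5 members whose transcription rises with heat shock (Hspa1a, Hspa1b, Hspb1, Dnajb1 and Hsph1) was set against the other 90, called constitutive here. The split is one of names, and whether any of the 90 also rise with heat shock was not examined. After the filter on low counts, 83 members entered the RNA test and 82 the RPF test and the test of footprints relative to RNA (translational efficiency, TE). The 12 members under both filters were Cct6b, Cct8l1, Dnajb13, Dnajb7, Dnajb8, Dnajc22, Dnajc5b, Dnajc5g, Hspb2, Hspb3, Hspb7 and Hspb9, with Hspa1l also under it in RPF. Their highest count in any library was 13 in RNA and 8 in RPF, and Dnajb7 and Dnajb8 had no count at all.

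Tsc2 encodes tuberin, which restrains the kinase mTORC1, and the question of the study was how loss of 1 allele alters the translation of mRNAs in the hippocampus. The mice were WT males and their Tsc2+/- littermates at 28 to 42 postnatal days. The mutant allele was a germline deletion obtained by crossing a floxed Tsc2 line with CMV-Cre mice, so that every cell type carried it. CA1-enriched slices were kept for 5 min in artificial cerebrospinal fluid (vehicle) or in 100 µM DHPG, which activates the metabotropic glutamate receptors mGluR1 and mGluR5. All slices were then exposed to 100 µg/ml cycloheximide, which holds ribosomes on mRNA. Each of the 4 groups (WT vehicle, WT DHPG, Tsc2+/- vehicle and Tsc2+/- DHPG) had 3 replicates, each a pool of slices from several mice that the study counts as a biological replicate, and every lysate gave 1 RNA library and 1 RPF library, 24 in all.

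As background, HSP70 proteins bind exposed hydrophobic stretches of unfolded chains and release them in cycles of ATP hydrolysis. J proteins deliver clients and start the hydrolysis, while BAG and HSP110 proteins act as nucleotide exchange factors that end the cycle. HSP90 works later, on clients that are near their final fold, and CCT and prefoldin together fold actin and tubulin, which neurons hold in large amounts. In a heat shock, HSF1 binds heat shock elements before the inducible genes, and in stress of the endoplasmic reticulum (ER), ATF6 acts with NF-Y on the ER stress element before the ER chaperones.

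The sequences before the start sites of 5 members are printed because the contrast between the inducible HSP70 pair, the ER chaperones and the mitochondrial chaperonin runs through the results. Each is the 250 bases upstream of the start in RefSeq (GRCm38.p6), 5′ to 3′ on the strand of the gene. Hspa1a (chr17:34972157-34972406, minus strand) and Hspa1b (chr17:34959239-34959488, minus strand) are neighbouring genes that encode the inducible HSP70. Capitals mark the 3 positions at which their windows differ.
Hspa1a: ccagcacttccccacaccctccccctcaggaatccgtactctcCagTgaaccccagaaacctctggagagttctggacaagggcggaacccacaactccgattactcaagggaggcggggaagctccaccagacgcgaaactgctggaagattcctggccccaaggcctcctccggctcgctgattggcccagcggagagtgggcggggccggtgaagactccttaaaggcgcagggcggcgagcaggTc
Hspa1b: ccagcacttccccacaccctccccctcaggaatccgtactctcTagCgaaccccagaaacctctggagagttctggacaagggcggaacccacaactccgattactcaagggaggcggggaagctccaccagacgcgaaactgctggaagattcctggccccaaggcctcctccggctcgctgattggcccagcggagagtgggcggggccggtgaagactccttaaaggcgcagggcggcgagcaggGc
In Hspa5 (chr2:34771840-34772089, plus strand), which encodes the ER HSP70 BiP, and Hsp90b1 (chr10:86705445-86705694, minus strand), which encodes the ER HSP90 GRP94, capitals mark matches to the ER stress element.
Hspa5: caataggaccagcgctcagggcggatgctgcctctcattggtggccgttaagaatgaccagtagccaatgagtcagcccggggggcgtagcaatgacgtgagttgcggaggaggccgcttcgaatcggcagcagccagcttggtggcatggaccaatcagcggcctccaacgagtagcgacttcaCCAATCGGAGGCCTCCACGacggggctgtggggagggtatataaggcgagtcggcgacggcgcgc
Hsp90b1: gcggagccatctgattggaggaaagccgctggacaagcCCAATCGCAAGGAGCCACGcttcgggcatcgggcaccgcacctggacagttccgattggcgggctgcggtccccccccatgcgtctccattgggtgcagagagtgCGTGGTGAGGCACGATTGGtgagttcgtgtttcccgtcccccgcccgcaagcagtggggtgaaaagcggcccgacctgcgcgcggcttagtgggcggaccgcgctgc
In Hspe1 (chr1:55087898-55088147, plus strand), which encodes the co-chaperonin HSP10 of mitochondria, capitals mark 2 overlapping matches to the heat shock element, 1 on each strand. The same bases lie before Hspd1, the gene for HSP60, which starts from the other strand.
Hspe1: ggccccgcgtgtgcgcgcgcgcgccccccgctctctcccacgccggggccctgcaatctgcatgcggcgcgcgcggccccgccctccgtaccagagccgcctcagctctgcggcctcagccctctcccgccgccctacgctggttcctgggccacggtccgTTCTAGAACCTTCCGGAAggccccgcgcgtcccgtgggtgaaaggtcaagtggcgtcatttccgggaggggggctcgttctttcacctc

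The heat shock element was searched as GAANNTTCNNGAA and its reverse complement TTCNNGAANNTTC, and the ER stress element as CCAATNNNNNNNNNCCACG and its reverse complement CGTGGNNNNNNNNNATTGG, and no member's window held both. RefSeq start sites were matched for 78 of the 95 members. The heat shock element was in the windows of 3 members, Dnajb6, Hspd1 and Hspe1, and of 0.514% of the 27025 genes with a window. None of the 5 inducible members held these letters in the 250 bases searched. Only exact matches were searched, so looser forms of the element and sites outside these windows would not be found. The ER stress element was in the windows of 3 members, Hspa5, Hsp90b1 and the ER J protein gene Dnajc3, and of 0.13% of all genes. In Hspa5 it ran from -65 to -47 relative to the start, in Dnajc3 from -105 to -87, and in Hsp90b1 from -212 to -194 and from -107 to -89. These matches are descriptions of letters and no binding was measured.

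RNA libraries held 14801679 to 24067838 counts and RPF libraries 5296006 to 13613673. Tsc2 itself separated the genotypes in every library, at 186 to 214 CPM in WT against 128 to 137 in Tsc2+/- RNA. Summed markers of neurons (10016 to 11149 CPM in WT and 10564 to 11629 in Tsc2+/-), of CA1 (1759 to 1838 and 1823 to 1952) and of astrocytes (1760.1 to 2018 and 1892 to 2093) were present in all RNA libraries. Of 6 dentate gyrus markers 4 were lower in Tsc2+/- at an unadjusted p under 0.05 in each assay with treatments averaged, against 3.07% of all genes in RNA and 3.46% in RPF. By treatment these were 1 of 6 in RNA and 0 of 6 in RPF under vehicle. Under DHPG they were 3 of 6 and 4 of 6. The median log2FCs were -0.36 and -0.20 under vehicle and -0.75 and -0.90 under DHPG, a difference between medians that was not tested. The genotype by DHPG interaction, fitted gene by gene, called 0.0% of genes in RNA and in RPF, and so none of these markers. Their summed RNA was 37.95 to 59.8 CPM in WT and 28.4 to 48.4 CPM in Tsc2+/-, all 6 being detected and only Tdo2 at 0 in some RNA library and Dsp in some RPF library. Among them only Prox1 was called, in RNA, with a log2FC of -0.41 ± 0.085 (SE, adjusted p = 0.0161), and of the blood markers Hbb-bt was called, with -3.16 ± 0.54 (SE, adjusted p = 0.00355). Hbb-bt RNA was near the floor, at 0 to 2.25 CPM with a median of 0.731, beside medians of 9.10 for Hba-a2 and 7.08 for Hbb-bs. In bulk slices, fewer cells of a type and less RNA per cell cannot be told apart.

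In WT slices under vehicle, the members carried many footprints for their RNA. The ratio was computed per length, as RPF CPM per kb of coding sequence (its first and last 30 nt left out, as in the deposited counts) over RNA CPM per kb of transcript. The median log2 ratio was 1.80 over the 82 members against 1.14 over the 12491 genes with both values, and 60 of the 82 were above the median of all genes. These values are means of 3 libraries and are given as a description, without a test. With coding length used for both assays the median was 0.87, and the median member stood at the 75.9th percentile in place of the 73.0th.

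The spread inside the family was wide. Dnajc24, which encodes a J protein of diphthamide synthesis, had the highest log2 ratio at 4.19 ± 0.12 (SD, n = 3), followed by Dnajb4 at 3.70 ± 0.21 and Dnaja1, a main J partner of cytosolic HSP70, at 3.32 ± 0.20. At the other end stood the inducible pair, with Hspa1a at -1.98 ± 0.22 and Hspa1b at -1.80 ± 0.57, and then Dnajc14 at -1.27 ± 0.10 and Bag1, an exchange factor of HSP70, at -1.04 ± 0.19. With coding length for both assays Dnajc24 (2.76) and Hspa1a (-2.51) were still the ends, but the order next to them was another. Hspa5 (2.56), Hsp90aa1 (2.45) and Pfdn6 (2.18) then came after Dnajc24, Dnajb4 was at 1.43 and Dnaja1 at 1.79, and Dnajc27, at -2.41, lay between Hspa1a and Hspa1b (-2.34). On transcript length, the distance between Dnajc24 and Hspa1a exceeded the replicate SDs many times over, while Hspa1a and Hspa1b lay within their SDs of each other. The remaining inducible members were unlike the pair, with 1.69 ± 0.94 for Hspb1, 2.23 ± 0.12 for Dnajb1 and 1.66 ± 0.089 for Hsph1. The inducible median was 1.66 (n = 5) and the constitutive median 1.81 (n = 77).

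For the inducible pair the mapping limits the value. Hspa1a and Hspa1b are identical at all but 11 of 1929 coding positions, and 91.9% of the 30-nt windows of the Hspa1a coding sequence and 89.2% of those of Hspa1b also occurred in another RefSeq gene, so that footprints of this length could seldom be placed uniquely, and the authors kept uniquely mapped reads. For RNA, 61.4% and 59.5% of 60-nt windows were shared. Their RPF counts per library were 8 to 31 for Hspa1a and 10 to 24 for Hspa1b. Further members had most 30-nt windows repeated elsewhere in the genome outside RefSeq genes, among them Hspa8 (95.1%), Dnaja1 (95.02%), Hspb1 (94.1%), Hsp90aa1 (91.9%), Dnajb6 (91.1%), Hspe1 (85.5%) and Hspd1 (81.1%). How reads were shared between such copies was not tested, and the levels of these genes, Hspa1a and Hspa1b first, are uncertain.

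On the scale of CPM per kb, constitutive HSP70 and HSP90 led the family. Hspa8, the constitutive cytosolic HSP70 (HSC70), was at 904 ± 58.9 in RNA and 2390.2 ± 103 in RPF (mean ± SD, n = 3), and Hsp90ab1, the constitutive cytosolic HSP90, at 736 ± 35.5 in RNA and 1657 ± 52.0 in RPF. Hsp90aa1, the other cytosolic HSP90, had lower RNA, at 287 ± 13.5 in RNA and 2032 ± 125 in RPF, so that its log2 ratio of 2.82 ± 0.12 stood above the 1.17 ± 0.034 of Hsp90ab1. The ER chaperones also carried many footprints, with log2 ratios of 2.97 ± 0.073 for Hspa5 and 2.16 ± 0.15 for Hsp90b1. The mitochondrial HSP70 gene Hspa9 was at 2.01 ± 0.079. Among the HSP110-type exchange factors Hspa4 was at 2.36 ± 0.23 and Hspa4l at 1.88 ± 0.24, and the divergent brain HSP70 gene Hspa12a at 1.57 ± 0.064. For the J proteins of synapses, Dnajc5, which encodes cysteine string protein of synaptic vesicles, was at 1.80 ± 0.18 and Dnajc6, which encodes auxilin of clathrin uncoating, at 1.37 ± 0.084. Some of these values rested on the transcript length: with coding length for both assays Dnajc5 was at -1.08, the 15.4th percentile of all genes in place of the 73.1st, and Hspa12a at 0.066, the 47.5th in place of the 65.3rd.

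**Figure D1:**
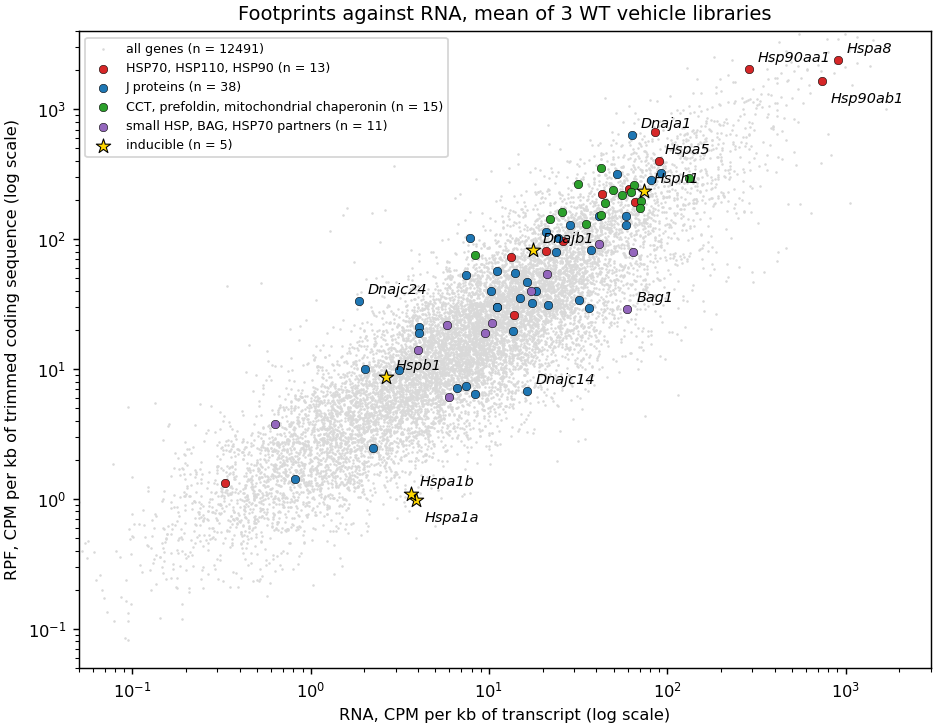
Mean RPF level (vertical, CPM per kb of trimmed coding sequence, log scale) against mean RNA level (horizontal, CPM per kb of transcript, log scale) in the 3 WT vehicle libraries of each assay, with all genes as grey points and the members coloured by class. Most members lie in the upper part of the cloud, while the stars of Hspa1a and Hspa1b lie near its lower edge, at log2 ratios of -1.98 and -1.80.

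The CCT chaperonin, a ring of 8 different subunits in equal numbers, was an even class. Its 8 genes ranged from 34.8 to 71.5 CPM per kb in RNA and from 132 to 261 in RPF, and 8 of 8 log2 ratios were above the median of all genes, between 1.29 and 2.27. Tcp1, which encodes the alpha subunit, was at 1.87 ± 0.14, Cct2 at 1.29 ± 0.036 and Cct5 at 1.47 ± 0.037. Prefoldin, which passes nascent actin and tubulin to CCT, had a median log2 ratio of 2.72 over the 5 genes with a Pfdn symbol. Pfdn2 was at 2.72 ± 0.19, and the lowest was Pfdn5 at 1.19 ± 0.33. Its place relative to CCT depended on the length used: with coding length for both assays Pfdn2 was at 0.83 and Pfdn5 at 0.64, below the 0.93 of Cct2, the lowest CCT gene, while Pfdn4 at 2.04 and Pfdn6 at 2.18 were above the 1.73 of Cct8, the highest. In the mitochondrial chaperonin the co-chaperonin Hspe1 was at 3.06 ± 0.17 and Hspd1 at 2.08 ± 0.10, with RNA levels of 42.4 and 44.9 CPM per kb. The 6 BAG genes had a median of 1.10, close to that of all genes, and held 0.99 ± 0.15 for Bag3, a factor of selective autophagy, and 0.30 ± 0.16 for Bag6, which guards hydrophobic proteins released from ribosomes. The small HSPs had a median of 1.40 (n = 4), with 1.10 ± 0.52 for Hspb8, the partner of Bag3, which was at -0.52 with coding length for both assays.

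**Figure D2:**
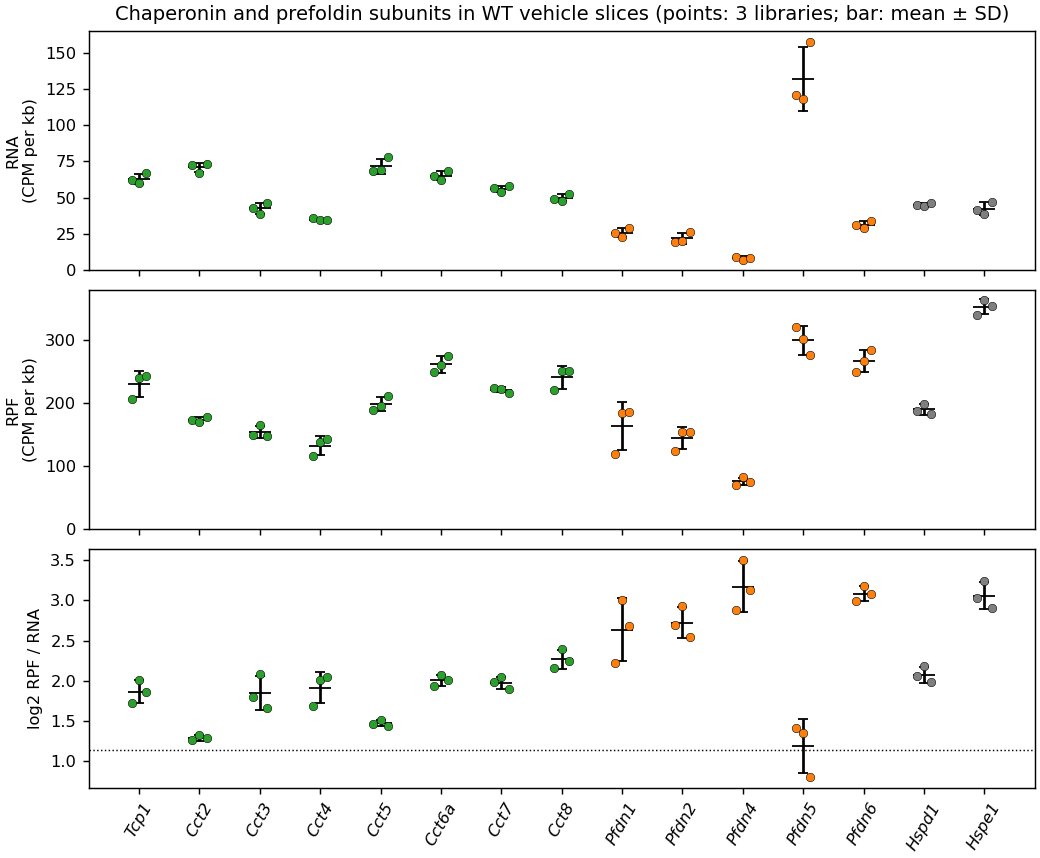
RNA level, RPF level (both in CPM per kb) and log2 RPF over RNA of CCT subunits (green), prefoldin subunits (orange) and the mitochondrial chaperonin (grey) in WT vehicle slices, with a point for each of 3 libraries, the mean and the SD. The dotted line is the median log2 ratio of all genes, 1.14, and all subunits shown have a mean above it, with Pfdn5 the nearest at 1.19.

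Across the 4 groups the summed level of the family stayed within narrow bounds. The 95 members together took 1.054 to 1.13% of CPM in the 12 RNA libraries and 2.37 to 2.57% in the 12 RPF libraries. The 5 inducible members took 0.0319 to 0.0350% in RNA and 0.0648 to 0.0736% in RPF. The inducible members varied more between replicates of a group, with a median coefficient of variation of 14.9% in RNA against 5.38% for constitutive members and 8.71% for all genes. In RPF these values were 23.5, 6.597 and 10.7%. Within the 5 the variation was uneven, at 29.1% for Hspb1 and 2.15% for Hsph1 in RNA, and lowly counted genes vary more by counting alone.

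Hspa1a RNA was 9.14, 11.2 and 12.4 in WT vehicle, 11.9, 10.9 and 14.2 in WT DHPG, 13.1, 10.3 and 16.7 in Tsc2+/- vehicle and 11.8, 13.4 and 12.0 in Tsc2+/- DHPG CPM. The values of all groups overlapped. Of the inducible genes only Hspa1a had an unadjusted p under 0.05 for genotype in RNA under vehicle, with a log2FC (Tsc2+/- over WT) of 0.28 ± 0.14 (SE, adjusted p = 0.983) and the same direction in 2 of 3 pairs of same-numbered libraries. Its RPF level was 0.987 to 2.60 CPM over the 12 libraries. Hspa1b RNA was 10.2, 10.3 and 10.3 in WT vehicle, 8.53, 10.6 and 12.7 in WT DHPG, 10.9, 8.72 and 11.6 in Tsc2+/- vehicle and 8.73, 8.40 and 14.4 in Tsc2+/- DHPG CPM, and its groups overlapped throughout. Its log2FC for genotype in vehicle was 0.010 ± 0.15 (SE, adjusted p = 0.998).

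Hspb1, which encodes HSP27, a small HSP that holds unfolded protein and binds actin, was the most scattered of the 5. Its RNA was 2.49, 1.57 and 3.15 in WT vehicle, 3.57, 2.60 and 2.37 in WT DHPG, 2.32, 1.30 and 2.44 in Tsc2+/- vehicle and 2.34, 2.16 and 3.63 in Tsc2+/- DHPG CPM, and its RPF 6.86, 5.02 and 3.04 in WT vehicle, 5.68, 2.44 and 4.31 in WT DHPG, 5.69, 3.71 and 4.71 in Tsc2+/- vehicle and 4.93, 2.24 and 5.43 in Tsc2+/- DHPG CPM. High and low libraries occurred in each group, and no pair of groups was apart in either assay. Averaged over genotypes its TE log2FC with DHPG was -0.58 ± 0.29 (SE, adjusted p = 0.583), the only inducible TE value under an unadjusted p of 0.05 in that comparison.

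Dnajb1, which encodes HSP40, the J partner of inducible HSP70, was steadier. Its RPF was 73.9, 83.1 and 82.9 in WT vehicle, 74.3, 88.2 and 83.6 in WT DHPG, 74.6, 91.5 and 79.0 in Tsc2+/- vehicle and 73.5, 64.7 and 76.2 in Tsc2+/- DHPG CPM, lowest in the Tsc2+/- DHPG libraries on average. The log2FC for genotype in DHPG was -0.18 ± 0.085 (SE, adjusted p = 1.0), lower in 3 of 3 pairs, and that for DHPG in Tsc2+/- was -0.18 ± 0.086 (SE, adjusted p = 1.0). These 2 comparisons share the Tsc2+/- DHPG libraries, and both were under an unadjusted p of 0.05 but did not pass the adjustment over all genes. Dnajb1 RNA was 49.1 to 59.3 CPM in the 12 libraries.

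Hsph1, which encodes HSP110, an exchange factor of HSP70, was the tightest. Its RNA was 261, 253 and 263 in WT vehicle, 244, 245 and 248 in WT DHPG, 255.96, 270.0 and 266 in Tsc2+/- vehicle and 249.6, 258 and 243 in Tsc2+/- DHPG CPM. All WT DHPG values were below the WT vehicle values, while the Tsc2+/- groups overlapped. The share of all genes separated in this way with 3 libraries a group is not given here. No member was called for an interaction of genotype and DHPG. The log2FC of DHPG averaged over genotypes was -0.077 ± 0.035 (SE, adjusted p = 0.637), lower in 6 of 6 pairs. Its RPF was 561 to 646 CPM, and the corresponding RPF log2FC was 0.0010 ± 0.039 (SE, adjusted p = 0.998).

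**Figure D3:**
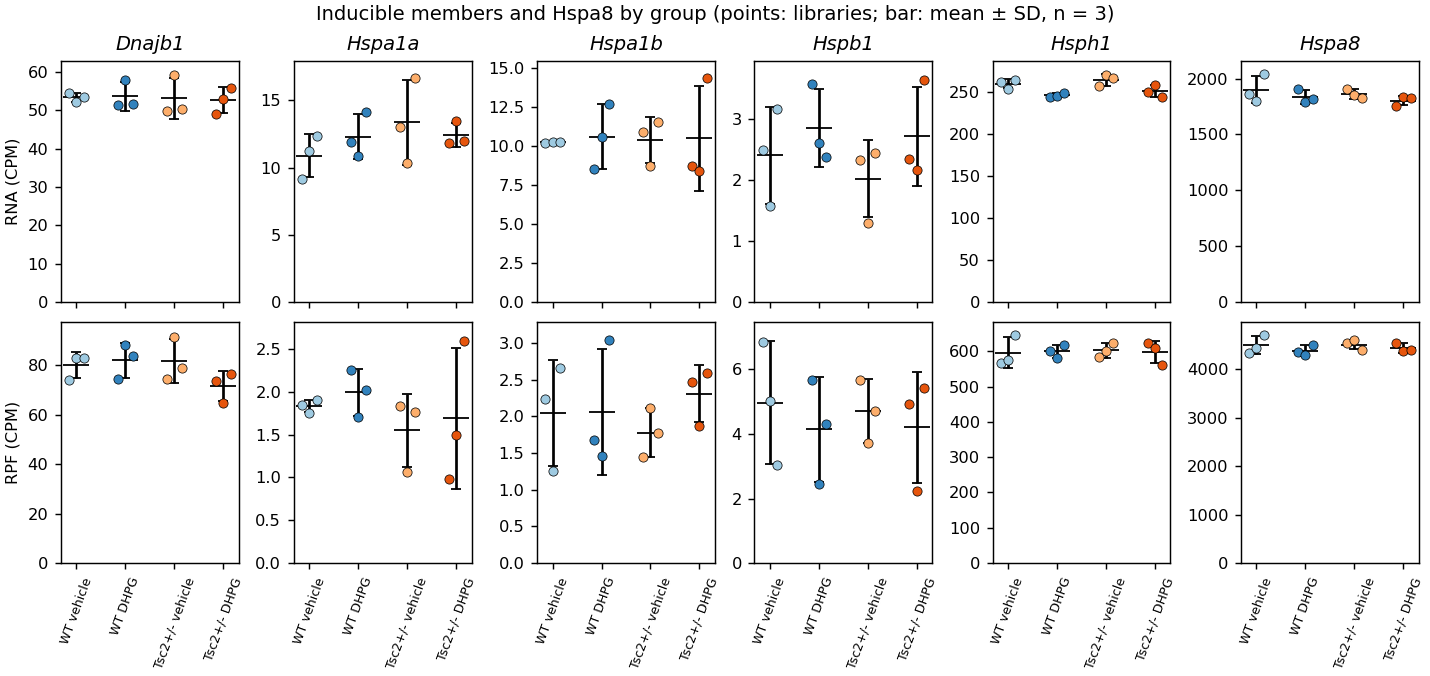
CPM of the 5 inducible members and of constitutive Hspa8 in RNA (top) and RPF (bottom) by group, with a point for each library, the mean and the SD (n = 3). Axes start at 0. Hspb1 and the Hspa1a and Hspa1b footprints are scattered within groups, while Hsph1 and Hspa8 are tight, and no inducible member has a genotype or DHPG difference past the adjusted threshold.

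The genotype comparison asked whether loss of 1 Tsc2 allele alters chaperone RNA or footprints. Of all members, only Hspa5 was called, at a Benjamini-Hochberg adjusted p under 0.1 in edgeR's quasi-likelihood test over all genes, and only in RPF with both treatments averaged. There 1 of 82 members was called, against 0.0621% of all genes tested, and the members with an unadjusted p under 0.05 numbered 5 in RPF (3 higher and 2 lower, against 3.18% and 3.46% of genes). In RNA 0 of 83 were called (0.227% of genes) and under 0.05 there were 4 in RNA (2 higher and 2 lower, against 3.05% and 3.07% of genes). In TE 0 of 82 were called (0.0%) and there were 4 in TE (2 higher and 2 lower, against 2.11% and 2.39% of genes). The median log2FC of the members was -0.0018 in RNA and -0.0048 in RPF, beside -0.0011 and -0.0020 over all genes. DESeq2 also called 1 member in the 21 comparisons of groups, 0 in each of the other 20.

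Hspa5 (chr2:34772090-34776529 in GRCm38, 8 exons) encodes BiP, which binds chains entering the ER and holds the stress sensors there inactive. Its footprints were 1261, 1234 and 1328 in WT vehicle, 1254, 1209 and 1289 in WT DHPG, 1329, 1413 and 1444 in Tsc2+/- vehicle and 1374, 1351 and 1471 in Tsc2+/- DHPG CPM. The 6 Tsc2+/- libraries were all above the 6 WT libraries, which held for 0.326% of all genes in either direction. The log2FC was 0.15 ± 0.031 (SE, adjusted p = 0.0920), higher in 6 of 6 pairs of same-numbered libraries. Under vehicle it was 0.13 ± 0.045 (SE, adjusted p = 0.594) and under DHPG 0.16 ± 0.044 (SE, adjusted p = 0.998). Hspa5 RNA ranged from 207 to 233 CPM in WT and from 226 to 260.4 in Tsc2+/-, so that the genotypes overlapped, with a log2FC of 0.087 ± 0.038 (SE, adjusted p = 0.747). Its TE log2FC was 0.062 ± 0.049 (SE, adjusted p = 0.996).

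The call on Hspa5 was narrow. Its adjusted p was 0.0230 in DESeq2 and 0.0951 after ComBat and DESeq2, the handling of batches nearest to the study's, and 0.825 without the replicate number in the model. Leaving out replicate number 2 of all groups gave 0.939, and over all alternatives it ran from 0.00609 to 0.939, with the direction kept in each. The dentate gyrus markers had summed footprints of 52.5 to 87.2 CPM in WT vehicle, 59.3 to 66.2 in WT DHPG, 56.0 to 62.8 in Tsc2+/- vehicle and 42.5 to 47.9 in Tsc2+/- DHPG, and their part in the Hspa5 difference was not tested.

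No other ER member passed the adjustment. Those described here do not stand for all ER members. Dnajc3 and Dnajc10 were picked after their values were seen, and the footprint change of others, such as Dnajc1, is not given. Hsp90b1 footprints were 903, 916 and 997 in WT vehicle, 951, 920.3 and 942 in WT DHPG, 983, 1005 and 1030.0 in Tsc2+/- vehicle and 989.9, 1015 and 1020.1 in Tsc2+/- DHPG CPM, with a log2FC of 0.10 ± 0.033 (SE, adjusted p = 0.535), higher in 6 of 6 pairs. Dnajb11, which encodes the ER J protein ERdj3, had 0.22 ± 0.077 (SE, adjusted p = 0.623) in vehicle and -0.091 ± 0.076 (SE, adjusted p = 1.0) in DHPG. Dnajc3, which encodes an ER J protein that also inhibits the kinase PERK, had 0.10 ± 0.054 (SE, adjusted p = 0.763) on average, and Dnajc10, which encodes an ER disulfide reductase with a J domain, 0.12 ± 0.059 (SE, adjusted p = 0.749). Outside the member rule, a list of 21 further ER chaperones and ER stress genes had 0 of 20 called in RPF for genotype averaged over treatments and 4 of 20 higher and 0 lower at an unadjusted p under 0.05, where 3.18% of all genes were higher. The 4 were the lectin chaperones Canx (0.083 ± 0.032 SE, adjusted p = 0.659) and Calr (0.074 ± 0.032 SE, adjusted p = 0.693) and the disulfide isomerases Pdia3 (0.081 ± 0.037 SE, adjusted p = 0.726) and Pdia4 (0.11 ± 0.049 SE, adjusted p = 0.685). The summed footprints of that list were 4147 to 4291 CPM in WT and 4298 to 4513 in Tsc2+/-, which did not overlap, and its summed RNA was 1989.9 to 2167 and 2039 to 2170.0 CPM, which did. Calr, Canx and Pdia3 had the highest footprint levels of the list, with medians of 1118, 1007 and 737 CPM. The sum thus leans on genes already named and is not a separate result.

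**Figure D4:**
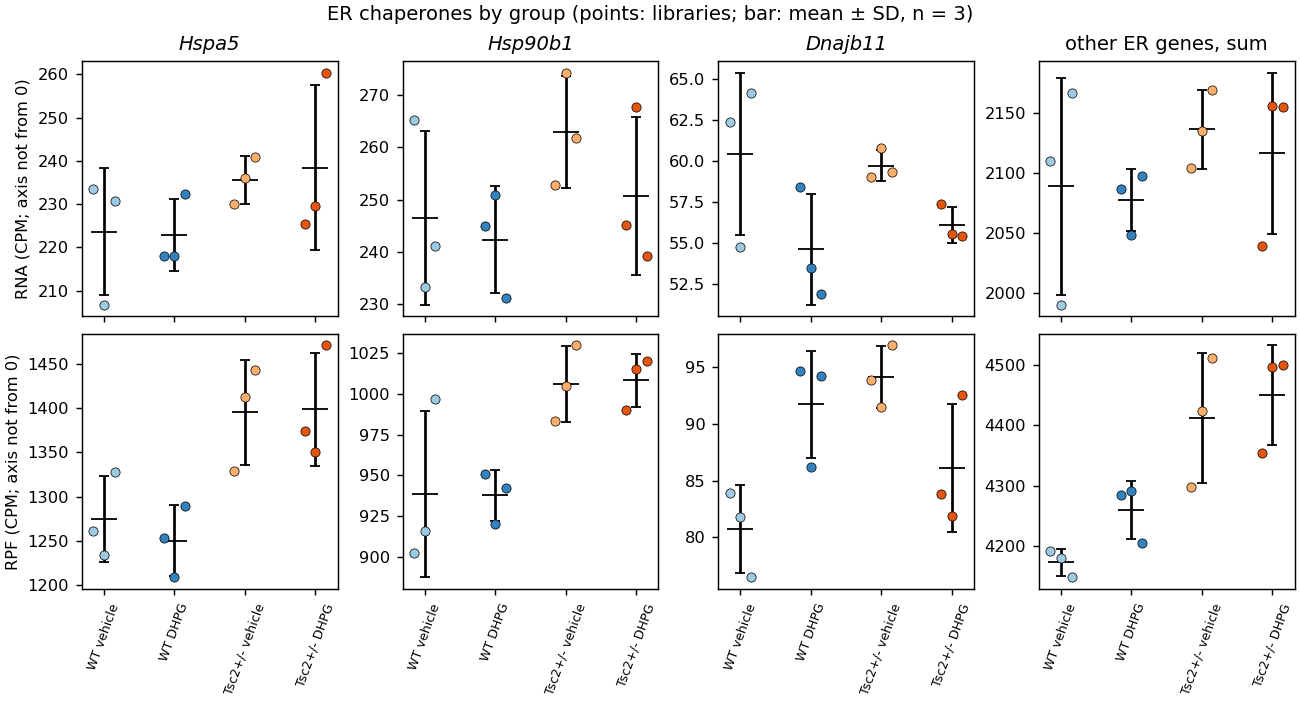
RNA (top) and RPF (bottom) levels in CPM of Hspa5, Hsp90b1, Dnajb11 and the sum of the 21 ER genes outside the member rule, by group, with a point for each library, the mean and the SD (n = 3). Axes do not start at 0. The Hspa5 footprints of all Tsc2+/- libraries lie above those of all WT libraries, while the RNA values of the genotypes overlap.

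Split by treatment, no member was called for genotype by edgeR or by DESeq2. In vehicle slices, where 0.0896%, 0.0233% and 0.0% of genes were called in RNA, RPF and TE, the members with an unadjusted p under 0.05 numbered 5 in RNA (1 higher and 4 lower, against 2.6% and 2.3% of genes), 7 in RPF (5 higher and 2 lower, against 3.38% and 3.17% of genes) and 7 in TE (4 higher and 3 lower, against 2.74% and 3.0% of genes). In DHPG slices, where 0.0482%, 0.0155% and 0.0% were called, they numbered 3 in RNA (1 higher and 2 lower, against 2.28% and 2.36% of genes), 4 in RPF (2 higher and 2 lower, against 2.08% and 2.05% of genes) and 2 in TE (0 higher and 2 lower, against 1.53% and 1.52% of genes).

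The members with the smallest p for genotype came from several classes. For RNA, Dnajc1, which encodes an ER J protein, had 0.25 ± 0.076 (SE, adjusted p = 0.427) for genotype averaged over treatments and 0.35 ± 0.11 (SE, adjusted p = 0.698) in DHPG, and on the lower side Hspb8 had -0.21 ± 0.081 (SE, adjusted p = 0.672). Dnajc9, a histone chaperone with a J domain, had -0.28 ± 0.11 (SE, adjusted p = 0.983) in vehicle, and Hspa14, a ribosome-associated HSP70, -0.20 ± 0.10 (SE, adjusted p = 0.997) in DHPG. For RPF, Dnajc5 had -0.10 ± 0.046 (SE, adjusted p = 0.714) and Bag2, an inhibitor of the ubiquitin ligase CHIP, -0.61 ± 0.22 (SE, adjusted p = 0.623) in vehicle. For TE, Hspa14 had 0.21 ± 0.10 (SE, adjusted p = 0.996) and Dnajc5 -0.12 ± 0.058 (SE, adjusted p = 0.996) on average, Pfdn4 0.50 ± 0.18 (SE, adjusted p = 0.812) and Dnajc17 -0.67 ± 0.25 (SE, adjusted p = 0.834) in vehicle, and Bag6 0.16 ± 0.081 (SE, adjusted p = 1.0) and Dnajc1 -0.46 ± 0.18 (SE, adjusted p = 1.0) in DHPG. None passed the adjustment. RPF counts per library were 28 to 97 for Bag2 and 70 to 170 for Dnajc17, and RNA counts 85 to 173 for Pfdn4, so these values are loosely bounded.

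DHPG for 5 min in WT slices asked whether receptor activation moved chaperone footprints ahead of RNA. No member was called in RNA, RPF or TE (0.0%, 0.0311% and 0.0704% of genes), by edgeR or by DESeq2. At an unadjusted p under 0.05 there were 11 in RNA (1 higher and 10 lower, against 3.7% and 2.75% of genes), 9 in RPF (5 higher and 4 lower, against 3.79% and 2.92% of genes) and 16 in TE (12 higher and 4 lower, against 4.45% and 4.61% of genes). Some cell type markers had an unadjusted p under 0.05 in the same comparison. Of 6 neuron markers 0 were called in RNA, RPF or TE. At that p 2 were higher in RNA, 1 lower in RPF and 2 lower in TE. Their summed RNA was 10016 to 10559 CPM in WT vehicle and 10717 to 11149 CPM in WT DHPG. These ranges did not overlap, but Camk2a alone had a median of 5665 CPM over the 12 RNA libraries. Their summed footprints, at 8013 to 9057 CPM in WT vehicle and 7894 to 8018 CPM in WT DHPG, overlapped. Of 6 oligodendrocyte markers 3 were higher in RNA and 2 lower in TE at an unadjusted p under 0.05. Their RNA sums were 4737 to 5603 CPM in WT vehicle and 5244 to 5849 CPM in WT DHPG. The part of these markers in the members' values was not tested. The median log2FC of the members was -0.028 in RNA, 0.017 in RPF and 0.046 in TE, beside -0.0016, -0.0019 and 0.00035 over all genes. The 5 inducible members gave 0 under 0.05 in each assay.

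CCT and prefoldin were described as classes in the same comparison. For CCT, 8 of 8 TE log2FCs were above 0 (as were 50.1% of all genes), with a median of 0.13, and 0 of 8 were above 0 in RNA (49.5% of genes), with a median of -0.062. For the Pfdn genes of prefoldin the medians were 0.31 in TE and -0.16 in RNA, where 0 of 5 were above 0. Pfdn2 was not higher in mean log2 RPF over RNA (not per length), at 0.62 in WT vehicle and 0.56 in WT DHPG. Tcp1 RNA was 155, 149 and 167 in WT vehicle, 140.1, 144 and 138 in WT DHPG, 150.3, 153 and 153 in Tsc2+/- vehicle and 146, 151 and 147 in Tsc2+/- DHPG CPM. It was lower in all WT DHPG libraries than in the WT vehicle libraries, a separation whose share over all genes is not given here. Its footprints were 331, 386 and 391 in WT vehicle, 379, 387 and 394 in WT DHPG, 376, 398 and 368 in Tsc2+/- vehicle and 382, 412 and 393 in Tsc2+/- DHPG CPM and overlapped. Tcp1 had a log2FC of -0.16 ± 0.055 (SE, adjusted p = 0.712) in RNA and 0.23 ± 0.080 (SE, adjusted p = 0.343) in TE, Cct2 had 0.14 ± 0.080 (SE, adjusted p = 0.628) in TE, and Cct5 0.042 ± 0.087 (SE, adjusted p = 0.927). TE values of a gene are differences of its RPF and RNA values, so a lower RNA value raises them.

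Members outside these complexes with the smallest p for DHPG in WT were, in RNA, Bag5 (-0.23 ± 0.076 SE, adjusted p = 0.712) on the lower side and Bag6 (0.12 ± 0.053 SE, adjusted p = 0.726) on the higher side. In RPF they were Hspe1 (0.23 ± 0.073 SE, adjusted p = 0.517) and Dnajc27, a J protein with a Rab-like domain (-0.28 ± 0.13 SE, adjusted p = 0.731). In TE they were Dnajb11 (0.32 ± 0.10 SE, adjusted p = 0.264) and Bag6 (-0.20 ± 0.081 SE, adjusted p = 0.422). Hspe1 footprints were 84.6, 90.6 and 87.9 in WT vehicle, 101, 101 and 106 in WT DHPG, 93.4, 99.4 and 106 in Tsc2+/- vehicle and 96.3, 108 and 101 in Tsc2+/- DHPG CPM. All WT DHPG libraries were above the WT vehicle libraries and the Tsc2+/- groups overlapped. The share of all genes separated in this way is not given here.

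These counts rested on single libraries. When any 1 library or replicate number was left out, the members higher in TE at an unadjusted p under 0.05 numbered 2 to 17 and those lower in RNA 1 to 14. Without WT vehicle replicate 2 (RNA and RPF library together), 5 members were called in TE, Bag6, Dnajb11, Dnajb6, Hspe1 and Tcp1, when 377 genes were called in all.

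In Tsc2+/- slices DHPG gave 0 called members in each assay by edgeR and by DESeq2 (0.0% of genes in RNA, 0.0% in RPF and 0.0% in TE), and 2 in RNA (1 higher and 1 lower, against 2.16% and 2.16% of genes), 6 in RPF (2 higher and 4 lower, against 2.15% and 1.88% of genes) and 4 in TE (2 higher and 2 lower, against 1.94% and 1.74% of genes) at an unadjusted p under 0.05. The smallest p values were those of Dnajc2, a ribosome-bound J protein (0.21 ± 0.10 SE, adjusted p = 1.0), and Dnajb6, which keeps polyglutamine proteins from aggregating (-0.14 ± 0.062 SE, adjusted p = 1.0), in RNA, and of Bag2 (0.63 ± 0.22 SE, adjusted p = 1.0) and Bag1 (-0.31 ± 0.12 SE, adjusted p = 1.0) in RPF. In TE they were Dnajc21, a J protein of ribosome assembly (0.58 ± 0.21 SE, adjusted p = 0.999), and Bag3 (-0.43 ± 0.16 SE, adjusted p = 0.999). For CCT the TE median was 0.054 and 7 of 8 were above 0 (50.1% of genes), and for prefoldin the median was 0.093.

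The difference of the DHPG response between the genotypes was tested as an interaction, and 0 members were called in each assay by edgeR and by DESeq2 (0.0% of genes in RNA, 0.0% in RPF and 0.0% in TE). At an unadjusted p under 0.05 there were 2 in RNA (2 higher and 0 lower, against 1.76% and 1.7% of genes), 4 in RPF (1 higher and 3 lower, against 1.86% and 1.95% of genes) and 5 in TE (3 higher and 2 lower, against 2.25% and 1.81% of genes). The smallest p values were those of Pfdn4 (0.51 ± 0.23 SE, adjusted p = 0.999) and Dnajb5 (-0.16 ± 0.083 SE, adjusted p = 0.999) in RNA, Bag2 (0.76 ± 0.31 SE, adjusted p = 0.998) and Dnajb11 (-0.31 ± 0.11 SE, adjusted p = 0.998) in RPF, and Dnajc17 (0.85 ± 0.36 SE, adjusted p = 0.999) and Dnajb11 (-0.36 ± 0.15 SE, adjusted p = 0.999) in TE. A DHPG value past a threshold in WT and not in Tsc2+/- is therefore not shown to differ between them.

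With both genotypes averaged, DHPG again gave 0 called members in each assay by edgeR and by DESeq2 (0.0207%, 0.0311% and 0.0469% of genes in RNA, RPF and TE). At an unadjusted p under 0.05 there were 10 in RNA (0 higher and 10 lower, against 4.07% and 3.42% of genes), 5 in RPF (3 higher and 2 lower, against 4.14% and 2.68% of genes) and 12 in TE (9 higher and 3 lower, against 4.51% and 4.01% of genes). The 10 lower in RNA were Dnajb6, Tcp1, Pfdn1, Dnajb11, Dnaja1, Bag5, Dnajc21, Dnaja2, Hsph1 and the mitochondrial HSP70 gene Hspa9, where 3.42% of genes were lower. This count too rested on single libraries, at 1 without replicate number 3 of all groups, 2 without replicate number 1, 3 without WT DHPG replicate 3, 4 without WT vehicle replicate 3, 5 without WT vehicle replicate 1 or Tsc2+/- DHPG replicate 1, 6 without Tsc2+/- vehicle replicate 2 or Tsc2+/- DHPG replicate 3, and 17 without WT vehicle replicate 2. Dnajb6 RNA was 122, 110.1 and 116 in WT vehicle, 108, 108 and 105 in WT DHPG, 112, 118 and 112 in Tsc2+/- vehicle and 107, 112 and 92.1 in Tsc2+/- DHPG CPM, and its log2FC was -0.13 ± 0.044 (SE, adjusted p = 0.499), lower in 6 of 6 pairs although the 6 vehicle and 6 DHPG values overlapped. Bag3 was the smallest p on the higher side, at 0.14 ± 0.071 (SE, adjusted p = 0.672). In RPF the smallest p values were those of Dnajc19, a J protein of mitochondrial import (0.24 ± 0.10 SE, adjusted p = 0.628), and Bag1 (-0.25 ± 0.081 SE, adjusted p = 0.474), and in TE those of Dnajc21 (0.45 ± 0.15 SE, adjusted p = 0.358) and Bag3 (-0.28 ± 0.11 SE, adjusted p = 0.478). The 6 DHPG values of TE lay above the 6 vehicle values for Dnajc21 and Tcp1, which 0.227% of all genes also showed.

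**Figure D5:**
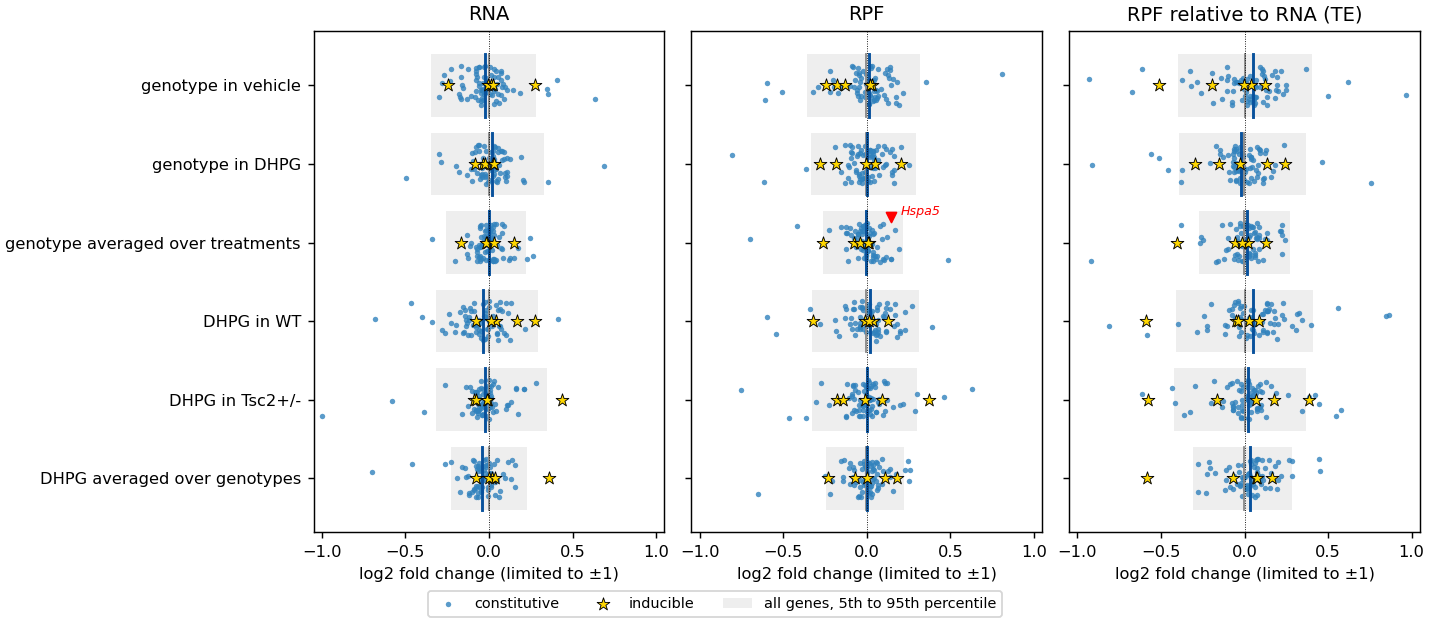
Log2FC of each tested member in RNA, RPF and TE for 6 comparisons, with constitutive members as blue points, inducible members as stars, grey bars for the 5th to 95th percentile of all genes, blue and grey lines for the constitutive and all-gene medians, and values beyond 1 drawn at the edge. The red triangle marks Hspa5, the only called member, and the inducible stars lie on both sides of 0 in every row of the RPF and TE panels.

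Hspa5 aside, the HSP70, HSP90 and chaperonin genes taken as examples, Hsp90b1 included, did not pass the test for genotype. Hspa8 RPF was 4333, 4444 and 4711 in WT vehicle, 4358, 4283 and 4496 in WT DHPG, 4531, 4588 and 4393 in Tsc2+/- vehicle and 4542, 4374 and 4387 in Tsc2+/- DHPG CPM, and its log2FC for genotype averaged over treatments was 0.011 ± 0.029 (SE, adjusted p = 0.971). Hsp90ab1 had -0.030 ± 0.029 (SE, adjusted p = 0.890), Hsp90aa1 -0.0043 ± 0.029 (SE, adjusted p = 0.985) and Hspd1 -0.027 ± 0.039 (SE, adjusted p = 0.927). The 12 further examples chosen by name were Hspa9, Hspa4, Hspa4l, Hspa12a, Dnaja1, Dnajc6, Cct2, Cct5, Pfdn2, Bag1, Bag3 and Bag6. Over these and Hspa8, Hsp90ab1, Hsp90aa1 and Hspd1, the RPF log2FCs for genotype ran from -0.11 (Pfdn2) to 0.040 (Bag6). The RNA log2FCs ran from -0.11 (Bag1) to 0.038 (Dnajc6). The fixed examples Hspa5, Hsp90b1, Hspe1, Hspb8, Dnajb6, Dnajc5 and Tcp1 were not part of these ranges. Among them, Hspb8, at -0.21, and Hspa5 lay outside the RNA range, and Hspa5 and Hsp90b1 outside the RPF range, with values given above. This is not a full list, and the others left out were not all inside these ranges.

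Between inducible and constitutive members the medians differed little. For genotype averaged over treatments the medians were -0.012 and -0.0013 in RNA, -0.041 and -0.0043 in RPF, and -0.016 and 0.015 in TE. For DHPG averaged over genotypes they were 0.018 and -0.044, 0.0010 and 0.0021, and 0.071 and 0.032. No test was run between these sets, and with 5 genes, 2 of them near-identical in sequence, the inducible median rests on few values.

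The replicate number, taken here as the study's batch of slices, was tested in the same fit. In RPF 4 of 82 members were called for it, Pfdn1 (adjusted p = 0.0388, edgeR quasi-likelihood test), Dnajc19 (0.0389), Cct8 (0.0905) and Dnajb6 (0.0913), against 4.65% of genes, and 12 had an unadjusted p under 0.05 (16.3% of genes). In RNA 0 of 83 were called by edgeR and by DESeq2 (2.54% of genes), and 11 had an unadjusted p under 0.05 (12.0%), 3 of the 5 inducible members among them. The smallest adjusted p values in RNA were 0.177 for Pfdn5, 0.187 for Hspa1b and 0.310 for Dnajb14. When 1 library or replicate number was left out, the RPF calls numbered 0 to 5.

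Co-chaperones and regulators outside the member rule were taken from a list of 41 genes. Of the 38 tested, 0 were called by edgeR for genotype or for DHPG. Hsf1, the heat shock factor that switches on the inducible genes, had a log2FC for genotype averaged over treatments of 0.16 ± 0.063 (SE, adjusted p = 0.682) in RNA and 0.090 ± 0.12 (SE, adjusted p = 0.919) in RPF. Stip1, the adaptor between HSP70 and HSP90, had 0.015 ± 0.040 (SE, adjusted p = 0.983) and 0.047 ± 0.039 (SE, adjusted p = 0.874). For genotype averaged over treatments 1 higher and 0 lower in RNA and 1 higher and 1 lower in RPF had an unadjusted p under 0.05 (against 3.05, 3.07, 3.18 and 3.46% of all genes). For DHPG averaged over genotypes there were 0 higher and 5 lower in RNA and 4 higher and 2 lower in RPF (against 4.07, 3.42, 4.14 and 2.68% of all genes). The immediate early genes, which report neuronal activity, had 0 of 19 called by edgeR for genotype or DHPG in either assay, with 0 in RNA and 4 in RPF (all lower, against 3.46% of all genes) at an unadjusted p under 0.05 for genotype averaged over treatments and 0 in RNA and 2 in RPF (both lower, against 2.68%) for DHPG averaged over genotypes. For the replicate number 8 of the 19 were called in RNA, against 2.54% of all genes, and 5 in RPF, against 4.65%.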

How the data were processed

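RNA and ribosome-protected fragments (RPF) came from the same lysates. The authors trimmed adapters with cutadapt, removed rRNA and tRNA reads with Bowtie2, mapped to mm10 with TopHat2, kept uniquely mapped reads without duplicates and ran RSEM, for RPF against coding sequences without their first and last 30 nt. The deposited values were expected counts per gene and were rounded to whole numbers. Genes were kept by filterByExpr (minimum count 10), scaled by TMM and tested with edgeR 4.0.16 (quasi-likelihood F test, two-sided) in R 4.3.3, modelling group plus replicate number, with Benjamini-Hochberg adjustment over all genes. A call is an adjusted p under 0.1. TE was the assay by group term of 1 model over 24 libraries, in place of anota2seq. CPM are TMM-scaled, and 0.5 was added to them for TE in single libraries. The SE of a log2FC was its size over the square root of F. Per-length values used RefSeq lengths and genes with at least 300 nt of coding sequence.

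Alternatives were DESeq2 1.42.0, ComBat (sva 3.50.0), size factors, no filter, no replicate number and leaving out libraries. Scripts were tested on simulated counts. The members and lists were chosen with earlier results of these data known. The genes named are the inducible members, fixed examples of each class, called members, the smallest p in each direction and comparison, and the extremes of footprints per RNA. Genes described beyond these (Pfdn6, Cct8, Dnajc3, Dnajc10, Dnaja2, Canx, Calr, Pdia3, Pdia4, Hsf1 and Stip1) were picked after their values were seen. P-values measure the spread between pooled replicates.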

Additional observations from a re-analysis of the deposited data

How the results depend on the processing

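Of the 24 results that answer a comparison, 476 alternative values kept the main value's side and 35 moved. Of the values of named members, 876 kept their direction and side of the threshold, 13 fell short of it (all Hspa5 RPF for genotype averaged over treatments), 3 newly passed it and 0 reversed. For genotype in RPF, averaged over treatments, 1 member was called, against 0 at an adjusted p under 0.05, 0 without the replicate block and 0 to 1 when replicates were left out, the cause of which was not tested. Genotype in DHPG gave 0 to 1 in RPF when replicates were left out. For DHPG in TE the leave-outs gave 0 to 5 in WT and 0 to 1 averaged over genotypes, each highest without WT vehicle replicate 2. For the replicate number, RNA gave 2 without the filter (Hspa1b and Pfdn5) and 0 to 1 in the leave-outs, and RPF gave 2 at an adjusted p under 0.05 and 0 to 5 in the leave-outs. The median log2 footprints per RNA was 0.87 with coding length for both assays and 1.68 to 1.78 in the leave-outs.

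The replicate block rests on numbers alone, which the labels do not tie to a shared day or litter. Same-numbered libraries correlated at 0.023 to 0.14 in RNA and 0.033 to 0.26 in RPF after removal of group means, so not every pair was over 0.1, and 12 of 12 libraries in each assay correlated best with their own number. Without the replicate block the group comparisons had 0 member calls in place of 1. In RPF replicates 2 and 3, 97.9 to 98.5% of nonzero counts were even, against 48.2 to 49.0% in replicate 1, and halving them left 1 call. Hspa1a and Hspa1b footprints rest on 8 to 31 and 10 to 24 counts per library, and whether depth or the sequence they share sets these counts was not tested.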
